A study of Mus musculus with 14 samples.

Results

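Hepatoblasts carrying the isocitrate dehydrogenase 1 mutant IDH1 R132C were compared on uncoated plates and on collagen. The comparison used 4 of the 14 arrays of the study, chosen by the sample titles, with 2 cultures on uncoated plates and 2 on collagen. It covered 12393 genes. The spread was estimated over all 14 arrays, which include vector cells and collagen cultures with wild-type IDH1, wild-type IDH2 or IDH2 R172K. Hepatoblasts are the progenitors of the fetal liver, from which both hepatocytes and bile duct cells arise. The cells had been taken at embryonic day 14 from wild-type mice and had become a permanent culture after sparse, clonal plating. Whether the cultures go back to 1 clone is not stated. R132C cells on uncoated plates had been kept in hepatoblast medium, with serum, epidermal growth factor, insulin-like growth factor II and insulin, on plain culture dishes for at most 5 days, which the protocol names an assay of hepatocyte differentiation. R132C cells on collagen had been kept in the same medium on plates coated with rat tail collagen. The mutant was expressed from a doxycycline-inducible system, and the protocol adds doxycycline at 25 ng/mL to the medium of IDH1 experiments, with no difference named between plates. Vector cells on uncoated plates and on collagen, with 2 cultures each, are set beside them where the responses are compared. Whether the vector cells also received doxycycline is not stated. Its part in differences between R132C and vector cells thus cannot be told apart from that of the mutant. No wild-type IDH1 cells were on uncoated plates, so the part of the R132C change cannot be told apart from that of added IDH1 either. The exact day of harvest, the species of the introduced IDH1 sequence and its promoter are not stated in the sources used here.

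IDH1 turns isocitrate into 2-oxoglutarate in the cytosol, and a change of the arginine that R132C replaces makes the enzyme reduce 2-oxoglutarate to 2-hydroxyglutarate, which inhibits enzymes that use 2-oxoglutarate. In liver development, hepatocytes come to secrete plasma proteins, complement and clotting factors and to express enzymes of drug, bile acid and fatty acid metabolism. Bile duct cells express keratins 7 and 19, Sox9 and Epcam, and proliferation falls as either fate is taken.

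The values were log2 of the probe set intensity, and a change is the uncoated mean minus the collagen mean, on the log2 scale, with its standard error (SE). Median intensity ranged from 144.8 to 148.3 units over these 4 arrays, and the 2 replicates of each plate correlated at r = 0.9973 and r = 0.998 across genes. Levels at or under log2 4.75, the lower quartile of all arrays, are close to background. The number of arrays, 2 per group, limits the precision of every value. A signal in bulk RNA cannot tell fewer cells of a type from less RNA per cell.

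The label of the cells was checked against markers. The fetal serum protein Afp lay between log2 10.35 and 11.57 in the 4 arrays, the oncofetal chromatin protein Hmga2 between 13.01 and 13.13, the nuclear receptor Hnf4a between 10.98 and 11.60, and the keratins Krt7 and Krt19 between 12.64 and 13.95. Vimentin (Vim), an intermediate filament of mesenchymal and of many cultured cells, lay at log2 13.86 and 13.89 on uncoated plates, and at 14.07 and 14.08 on collagen. Markers that the label would also lead to were dim: Dlk1 lay between log2 5.14 and 5.37, and Gpc3 between 4.71 and 4.87. The mature hepatocyte genes Alb, Tat and Cps1 lay between log2 3.73 (Cps1) and 4.85 (Alb), and the biliary chloride channel Cftr reached at most log2 3.70, so these 4 genes were near background on both plates. Spp1 and Serpina1a were not measured by a probe set with a single symbol.

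Of 12393 genes, 3215 (25.9%) changed on uncoated plates by limma at an adjusted p under 0.05. Of these 1689 rose (13.6%) and 1526 fell (12.3%), and 287 rose (2.32%) and 205 fell (1.65%) by at least 2-fold. The middle size of a called change was log2 0.573, while the median over all genes was -0.028. At least 4-fold changes were held by 42 rises and 10 falls. The 2 uncoated arrays lay on one side of the 2 collagen arrays for 8138 genes (65.7%), so that a gene without overlap between plates was the usual case. The count of 3215 depended on single arrays: it was 1660 without uncoated replicate 2, 1820 without collagen replicate 1, 2073 without collagen replicate 2 and 2527 without uncoated replicate 1.

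**Figure D1:**
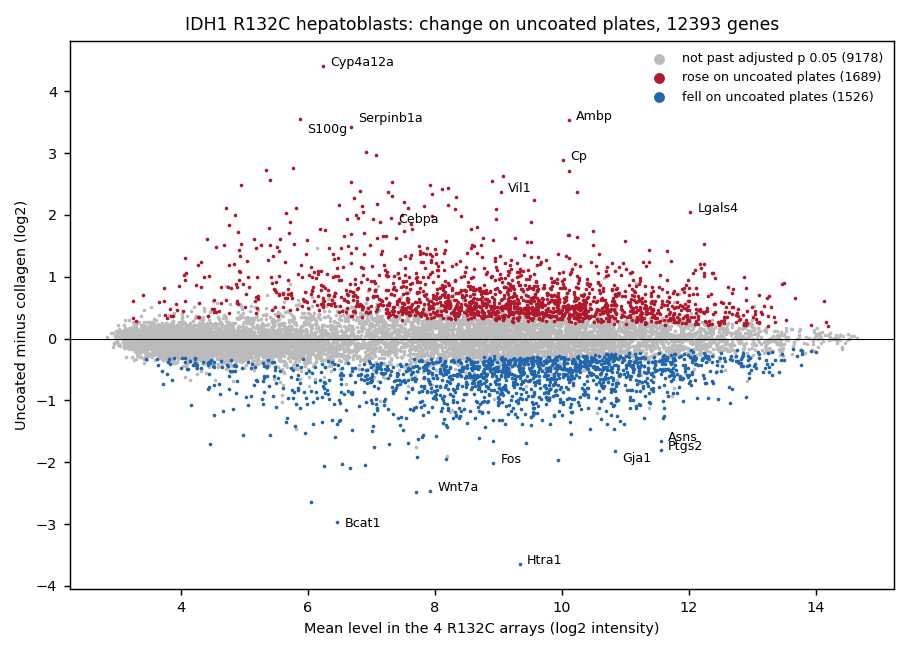
Each point is 1 of 12393 genes, with its mean log2 intensity over the 4 R132C arrays on the horizontal axis and its change, uncoated minus collagen on the log2 scale, on the vertical axis. Red points are the 1689 rises and blue points the 1526 falls past adjusted p 0.05. The rises reach further from 0 than the falls, with Cyp4a12a at 4.41 and Htra1 at -3.64.

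The 15 largest rises that started above background were those of Ambp, Serpinb1a, Sptssb, Pilra, Cp, Lbp, Hpx, Cfb, Cyp4b1, Acox2, AW112010, Cmtm8, Tmigd1, Ocln and Klb, from the largest down. Ambp on chromosome 4, the precursor of alpha-1-microglobulin and of the protease inhibitor bikunin, stood at log2 11.66 and 12.11 on uncoated plates, against 8.26 and 8.43 on collagen. Both uncoated arrays lay far above both collagen arrays, and the rise was 11.6-fold (log2 3.54, SE 0.33, adjusted p = 3.17e-05). Ceruloplasmin (Cp), the copper-carrying ferroxidase of plasma, stood at log2 11.02 and 11.89 on uncoated plates, against 7.98 and 9.17 on collagen. The collagen replicates of Cp differed from each other by more than the uncoated ones, yet the plates did not overlap, and Cp rose 7.36-fold (log2 2.88, SE 0.44). Lbp, which presents bacterial lipopolysaccharide to its receptor, stood at log2 11.31 and 11.63 on uncoated plates, against 8.47 and 9.06 on collagen, and rose 6.52-fold. Hemopexin (Hpx), the heme carrier of plasma, stood at log2 10.27 and 10.51 on uncoated plates, against 7.64 and 7.89 on collagen, and rose 6.16-fold. In both genes the nearest arrays of the 2 plates were more than 2 log2 units apart. Complement factor B (Cfb), the protease of the alternative pathway, stood at log2 9.71 and 10.66 on uncoated plates, against 7.59 and 7.67 on collagen, and rose 5.87-fold.

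Serpinb1a, an intracellular inhibitor of neutrophil proteases, stood at log2 7.72 and 9.05 on uncoated plates, against 4.99 and 4.94 on collagen, a 10.7-fold rise. Its collagen level was only just above the quartile, and uncoated replicate 2 lay more than 1 log2 unit above uncoated replicate 1. Klb, the co-receptor through which liver cells sense the hormones FGF21 and FGF15, stood at log2 8.37 and 8.53 on uncoated plates, against 5.95 and 6.19 on collagen, and rose 5.19-fold. Occludin (Ocln), a membrane protein of tight junctions, stood at log2 7.79 and 8.25 on uncoated plates, against 5.64 and 5.63 on collagen, and rose 5.21-fold. For Klb and Ocln the replicates of each plate lay close together compared with the gap between plates. Other, dimmer probe sets gave changes of 1.51 (adjusted p = 0.000229) for Serpinb1a, 1.05 (0.0248) for Sptssb and -0.04 (0.867) for Klb. Sptssb, a small subunit of the enzyme that starts sphingolipid synthesis, rose by log2 3.01 (SE 0.30), the immune inhibitory receptor Pilra by 2.97 (SE 0.40), the cytochrome Cyp4b1 by 2.53 (SE 0.27), the peroxisomal oxidase Acox2 by 2.53 (SE 0.28), the membrane protein Cmtm8 by 2.43 (SE 0.23) and the epithelial adhesion protein Tmigd1 by 2.42 (SE 0.40). The transcript AW112010, with no role given in the files, rose by 2.48 (SE 0.52), a call lost on leaving out 1 array (adjusted p = 0.0513 without uncoated replicate 2). Each other gene of this and the last paragraph kept its call without any one of the 4 arrays, with adjusted p of at most 0.0155 (Tmigd1).

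**Figure D2:**
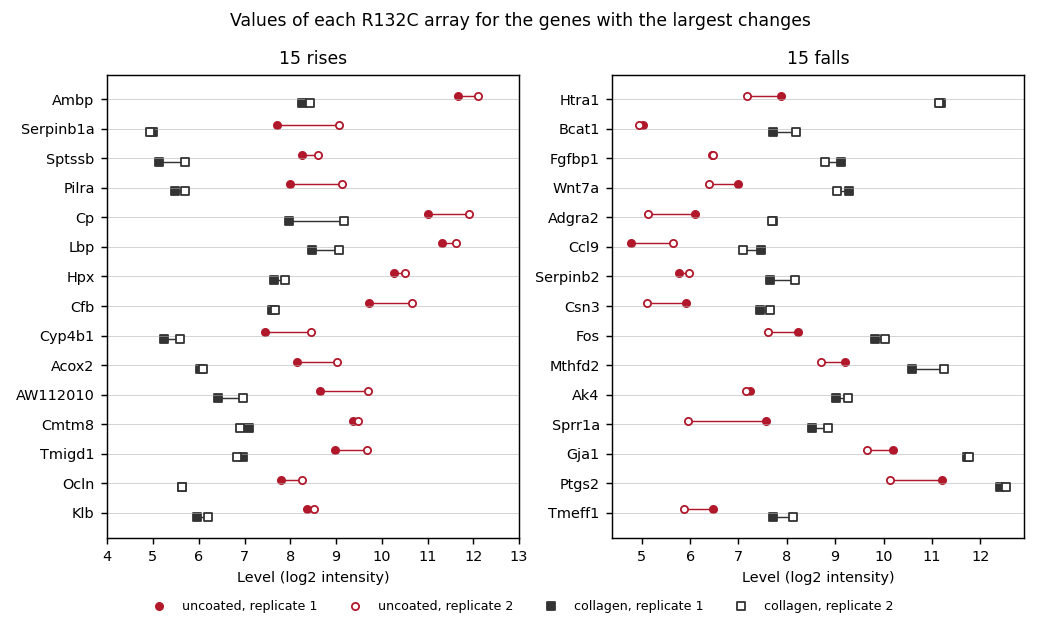
Log2 intensity (horizontal axis) of the 15 largest rises and 15 largest falls whose lower plate was above background, one gene per row. Red circles are the uncoated and dark squares the collagen arrays, filled for replicate 1 and open for replicate 2. In no row do the plates overlap, while in several rows, such as Serpinb1a and Ptgs2, the uncoated replicates lie over 1 log2 unit apart.

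The largest falls included a secreted protease and a Wnt ligand. Htra1 on chromosome 7, a secreted serine protease, stood at log2 7.87 and 7.17 on uncoated plates, against 11.19 and 11.14 on collagen. It fell 12.5-fold (log2 -3.64, SE 0.25, adjusted p = 5.87e-06), and the 2 collagen values were nearly equal. Bcat1, the cytosolic aminotransferase that moves amino groups from branched-chain amino acids to 2-oxoglutarate, stood at log2 5.02 and 4.95 on uncoated plates, against 7.71 and 8.19 on collagen. Its uncoated level was close to background, so the fall of 7.78-fold is not exact, and its other probe set, at -0.76, was not called (adjusted p = 0.227). Wnt7a, a secreted Wnt ligand, stood at log2 6.99 and 6.40 on uncoated plates, against 9.28 and 9.03 on collagen, and fell 5.52-fold. Adgra2, a receptor that helps cells respond to Wnt7 ligands, stood at log2 6.11 and 5.12 on uncoated plates, against 7.72 and 7.70 on collagen, and fell 4.27-fold. Fgfbp1, a secreted carrier of fibroblast growth factors, stood at log2 6.45 and 6.47 on uncoated plates, against 9.11 and 8.78 on collagen, and fell 5.61-fold. In all 3 of these genes the gap between the nearest arrays of the 2 plates was wider than the gap between replicates.

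Fos, a subunit of the AP-1 transcription factor, stood at log2 8.23 and 7.61 on uncoated plates, against 9.83 and 10.02 on collagen, and fell 4.02-fold. Ptgs2, the inducible enzyme of prostaglandin synthesis, stood at log2 11.20 and 10.13 on uncoated plates, against 12.41 and 12.52 on collagen, and fell 3.49-fold. Gja1, the gap junction protein connexin 43, stood at log2 10.20 and 9.65 on uncoated plates, against 11.73 and 11.77 on collagen, and fell 3.54-fold. In all 3 genes uncoated replicate 2 was the lowest array. Of 5 other probe sets of Gja1, the 2 dimmest gave smaller falls of 0.79 and 0.78 (adjusted p = 0.00565 and 0.0314). The chemokine Ccl9 fell by 2.06, the plasminogen activator inhibitor Serpinb2 by 2.04, the casein Csn3 by 2.04, the mitochondrial adenylate kinase Ak4 by 1.95 and the membrane protein Tmeff1 by 1.75. Dim other probe sets gave -0.47 (adjusted p = 0.0208) and -0.15 (0.351) for Ak4 and -0.01 (0.969) for Csn3. The mitochondrial folate enzyme Mthfd2 fell by 1.97. Sprr1a, a protein of the cornified cell envelope, stood at log2 7.57 and 5.97 on uncoated plates, against 8.53 and 8.84 on collagen. The uncoated replicates of Sprr1a lay far apart, and its call was lost on leaving out single arrays (adjusted p = 0.245 without uncoated replicate 2, 0.0739 without collagen replicate 1 and 0.117 without collagen replicate 2). The other falls of this and the last paragraph kept their calls without any one array, with Mthfd2 at an adjusted p of up to 0.0431.

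Genes that left or entered the background were listed apart, since their folds are not exact. Of the 287 rises of at least 2-fold, 34 started at or under the lower quartile on collagen, and of the 205 falls 9 ended there on uncoated plates. Cyp4a12a, a fatty acid omega-hydroxylase, stood at log2 7.81 and 9.10 on uncoated plates, against 3.93 and 4.15 on collagen. S100g, the calcium-binding protein calbindin-D9k, stood at log2 7.58 and 7.72 on uncoated plates, against 4.12 and 4.06 on collagen. Both were in background on collagen and well above it on uncoated plates. The sulfotransferase Sult1d1 rose by log2 2.73 (SE 0.15), the intestinal membrane protein Tm4sf20 by 2.75 (SE 0.21), the cystatin Cst9 by 2.56 (SE 0.35), the epithelial ETS factor Ehf by 2.49 (SE 0.43), the histidine-degrading enzyme Amdhd1 by 2.12 (SE 0.18) and the terminal complement component C9 by 2.03 (SE 0.25). Bcl2l15, a relative of regulators of cell death, stood at log2 4.70 and 4.75 on uncoated plates, against 7.07 and 7.66 on collagen. The transketolase-like protein Tktl1 fell by 1.71, the lymphoid phosphatase Ptpn22 by 1.55 and the DNA repair protein Bard1 by 1.08, all to under the quartile.

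The genes were then read by role, through 42 lists of liver, metabolic, growth and signalling genes and of markers of other cells. Some genes stand in more than 1 list. The counts of each list are given with its median change, against 13.6% rises, 12.3% falls and a median of -0.028 over all genes.

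**Figure D3:**
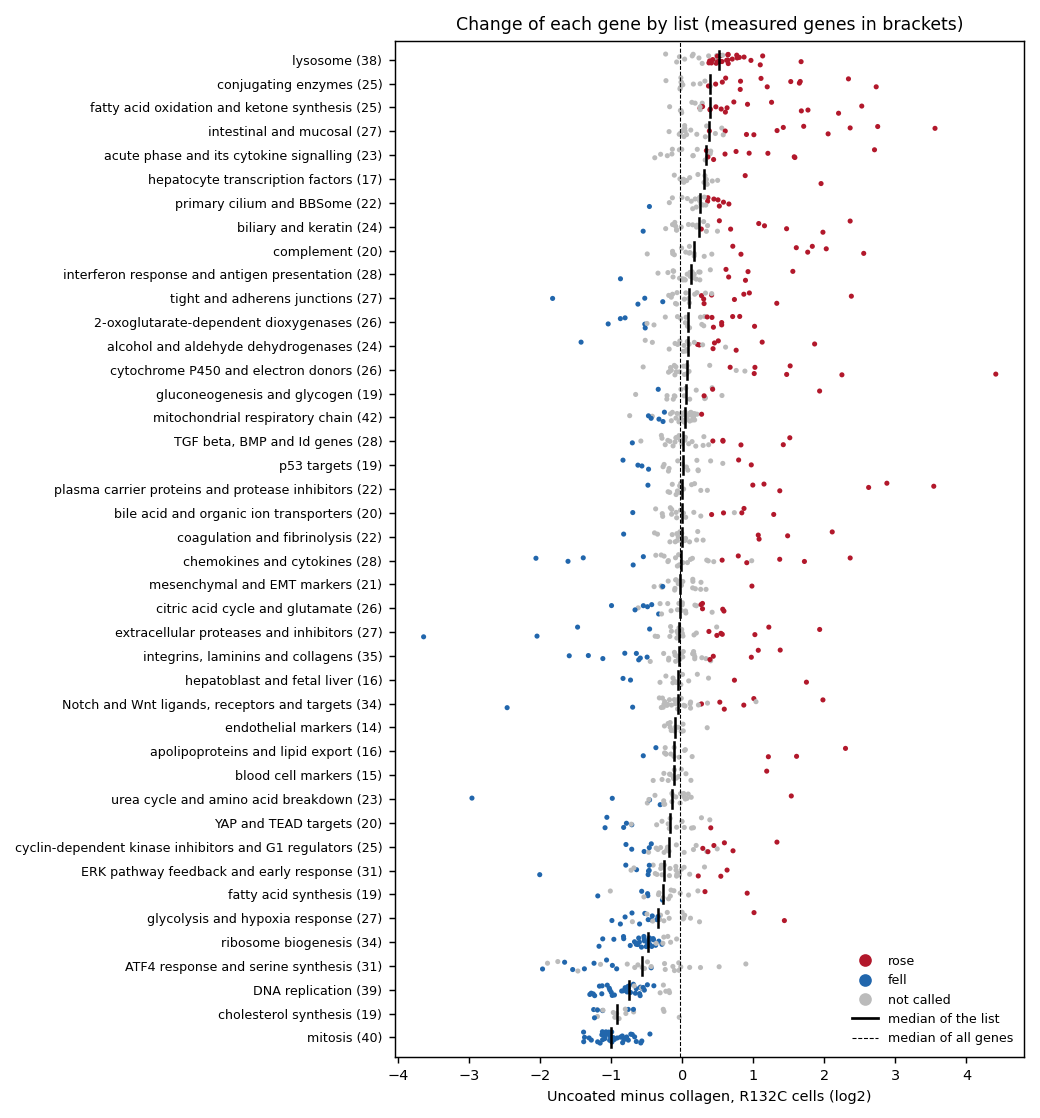
Change of each measured gene (uncoated minus collagen, log2, horizontal axis) by list, with the lists ordered by their median and the number of measured genes in brackets. Red points rose, blue points fell and grey points were not called. The lysosome list has the highest median (0.518) and the mitosis list the lowest (-0.999), and in most lists the medians lie near the dashed line of all genes while single members lie far out on either side.

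Hepatocyte transcription factors had 2 rises and no fall among 17 measured, with a median of 0.306. Cebpa, which drives hepatocyte genes and restrains division, stood at log2 8.04 and 8.54 on uncoated plates, against 6.47 and 6.20 on collagen. Both uncoated arrays lay above both collagen arrays, and Cebpa rose 3.87-fold (log2 1.95, SE 0.20, adjusted p = 5.82e-05). Nr1h4, the bile acid receptor FXR, stood at log2 7.04 and 7.17 on uncoated plates, against 6.31 and 6.13 on collagen, and rose by 0.89 (SE 0.12). Hnf4a stood at log2 11.26 and 11.60 on uncoated plates, against 11.24 and 10.98 on collagen, and the difference of 0.32 (SE 0.11) missed the threshold (adjusted p = 0.0579). Its uncoated replicate 1 was level with collagen replicate 1, and only uncoated replicate 2 was clearly higher. Of 3 other Hnf4a probe sets the brightest was called, with a rise of 0.61 (adjusted p = 0.00208), and the others were not (0.55 and 0.19). The Hnf4a difference was 0.49 without uncoated replicate 1 and 0.45 without collagen replicate 1, both called, and 0.15 and 0.19 without the other arrays. The count of 2 rises was 4 without collagen replicate 1.

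Secreted plasma proteins moved in part. Of 22 plasma carriers and protease inhibitors, 6 rose and 1 fell, with a median of 0. Beside Ambp, Cp and Hpx, the hyaluronan-linking protein Itih2 stood at log2 8.47 and 8.76 on uncoated plates, against 7.35 and 7.13 on collagen. Transthyretin (Ttr), the carrier of thyroid hormone and of retinol-binding protein, stood at log2 7.35 and 7.47 on uncoated plates, against 6.29 and 6.23 on collagen. Both rose, by log2 1.37 (SE 0.15) and 1.15 (SE 0.15), with replicates close together. For Ttr the 2 other probe sets, both dimmer, gave larger rises of 3.65 (adjusted p = 5.44e-05) and 3.41 (2.62e-06), so its size depends on the probe set. Alb, the main plasma protein, stood at log2 4.85 and 4.75 on uncoated plates, against 4.54 and 4.79 on collagen, and the difference of 0.13 (SE 0.16) between levels near background missed the threshold (adjusted p = 0.622). The single fall of the list, Serpind1 at -0.48 (SE 0.17), was called at the edge (adjusted p = 0.0498) and in no setting that left out 1 of the 4 arrays (adjusted p = 0.107 without uncoated replicate 1, 0.217 without uncoated replicate 2, 0.207 without collagen replicate 1 and 0.123 without collagen replicate 2), nor when every probe set was tested (0.0563).

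Of 20 complement genes 7 rose (35%) and none fell, with a median of 0.169. C4bp, which inhibits the classical pathway, stood at log2 9.17 and 9.75 on uncoated plates, against 7.60 and 7.79 on collagen, and C1ra, a protease of the first complement component, at 5.57 and 6.34 on uncoated plates, against 4.29 and 4.41 on collagen. C4bp rose 3.4-fold, beside Cfb and C9, and C1ra rose by log2 1.60 (SE 0.21) from under the quartile, so that its size is not exact. The count of 7 was 4 without collagen replicate 1 or collagen replicate 2. Of 22 clotting and fibrinolysis genes, 4 rose and 1 fell, and 11 were near background on both plates. The fibrinogen chain Fgb stood at log2 6.69 and 7.04 on uncoated plates, against 4.52 and 4.98 on collagen, and rose 4.32-fold, and protein C (Proc), which turns off clotting, stood at log2 9.71 and 10.03 on uncoated plates, against 8.58 and 9.01 on collagen, and rose 2.12-fold. Without collagen replicate 1 the count was 2. Tissue factor (F3), which starts clotting, was the fall, at log2 9.76 and 9.24 on uncoated plates, against 10.35 and 10.31 on collagen, and its call was lost without single arrays (adjusted p = 0.146 without uncoated replicate 2, 0.0717 without collagen replicate 1 and 0.056 without collagen replicate 2).

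Of 16 genes of apolipoproteins and lipid export, 3 rose and 2 fell, with a median of -0.115. The lipoprotein receptor Lrp1 stood at log2 8.04 and 8.90 on uncoated plates, against 6.12 and 6.22 on collagen, and rose 4.92-fold. Apoc2, the activator of lipoprotein lipase, stood at log2 5.93 and 6.80 on uncoated plates, against 5.10 and 4.41 on collagen, and rose 3.05-fold, with collagen replicate 2 under the quartile. Apob, the structural protein of secreted lipoproteins, stood at log2 12.39 and 13.30 on uncoated plates, against 11.80 and 11.47 on collagen, and rose 2.32-fold. The call of Apob was lost without single arrays (adjusted p = 0.102 without uncoated replicate 2 and 0.0674 without collagen replicate 2). The falls were Scarb1 and Apoe, the second between levels under the quartile. They numbered 1 without uncoated replicate 1, uncoated replicate 2 or collagen replicate 1, and 0 without collagen replicate 2.

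Genes of the acute phase, the liver's answer to inflammatory cytokines, had 10 rises of 23 (43.5%) and no fall, with a median of 0.339. Cebpd, a transcription factor induced by interleukin 6, stood at log2 7.06 and 6.51 on uncoated plates, against 4.75 and 5.64 on collagen. Its 2 uncoated values were the highest, and it rose 3-fold, while its other probe set was not called (0.24, adjusted p = 0.137). Of the metal-binding metallothioneins, Mt1 stood at log2 12.67 and 12.89 on uncoated plates, against 11.50 and 11.66 on collagen, and Mt2 at 11.51 and 12.07 on uncoated plates, against 10.04 and 10.39 on collagen. They rose 2.31-fold and 2.98-fold, beside Lbp. The call of Mt1 was lost when its probe sets were averaged (0.78, adjusted p = 0.0895), the other probe set being at 0.36 (adjusted p = 0.702). The siderophore-binding protein Lcn2 rose by log2 0.94 (SE 0.17) from under the quartile. The count of 10 was 6 without uncoated replicate 2, and 1 gene fell without collagen replicate 2. Of 28 chemokines and cytokines 6 rose and 5 fell. The monocyte chemokine Ccl2 stood at log2 11.68 and 11.17 on uncoated plates, against 8.59 and 9.53 on collagen, and rose 5.15-fold, and interleukin 18 (Il18) rose by 1.37 (SE 0.21). The chemokine receptor Ackr3 stood at log2 8.32 and 7.47 on uncoated plates, against 9.53 and 9.47 on collagen, and fell 3.05-fold, and the alarmin Il33 fell by 1.39. Chemokines thus went both ways, and their rises numbered 3 without collagen replicate 2. Of 28 genes of interferon response and antigen presentation, 5 rose and 1 fell, among them tapasin (Tapbp), which loads peptides on class I molecules, at 1.56 (SE 0.27) (0.27 and not called by its other probe set) and B2m at 0.62 (SE 0.094). Those 5 rises were 3 without uncoated replicate 2 and without collagen replicate 1, and the 1 fall was 0 without uncoated replicate 2.

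Enzymes of drug metabolism were read next. Of 26 cytochrome P450 genes and electron donors 7 rose (26.9%) and none fell, with a median of 0.063, and 14 were at or under the quartile on both plates. Without collagen replicate 2, 2 of them fell. Cyp3a13, of the family that oxidises most drugs, stood at log2 10.60 and 10.77 on uncoated plates, against 8.44 and 8.43 on collagen. The collagen replicates were nearly equal, and Cyp3a13 rose 4.75-fold. Cyp27a1, which starts bile acid synthesis on the side chain, stood at log2 6.99 and 7.16 on uncoated plates, against 5.64 and 5.57 on collagen, and rose 2.77-fold, and the fatty acid hydroxylases Cyp4v3 and Cyp4f13 rose by log2 1.52 (SE 0.20), from under the quartile, and 1.02 (SE 0.18). Of 25 conjugating enzymes 13 rose (52%) and none fell, with a median of 0.392. The glutathione transferase Gsta4, which clears lipid peroxidation products, stood at log2 12.99 and 13.02 on uncoated plates, against 11.73 and 11.22 on collagen, the glucuronosyltransferase Ugt2b34 at 10.69 and 11.45 on uncoated plates, against 9.37 and 9.47 on collagen and the sulfotransferase Sult1c2 at 7.23 and 7.57 on uncoated plates, against 5.56 and 5.92 on collagen. All 3 rose, by log2 1.53 (SE 0.25), 1.65 (SE 0.22) and 1.66 (SE 0.21). The count of 13 was 8 without uncoated replicate 2 and without collagen replicate 2.

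Of 25 genes of fatty acid oxidation and ketone synthesis, 15 rose (60%) and none fell, with a median of 0.389, and 11 to 13 rose when any 1 array was left out, with 1 fall without collagen replicate 2. Cpt1a, which admits long-chain fatty acids to mitochondria, stood at log2 10.87 and 11.02 on uncoated plates, against 9.36 and 9.18 on collagen. It rose 3.2-fold (log2 1.68, SE 0.10), with close replicates on each plate. The thioesterase Acot1 stood at log2 8.72 and 8.50 on uncoated plates, against 5.99 and 6.84 on collagen, and rose 4.59-fold. Bdh1, the last enzyme of ketone body synthesis, stood at log2 6.90 and 7.27 on uncoated plates, against 5.19 and 5.43 on collagen, and rose 3.41-fold (log2 1.77, SE 0.30), with its other probe set at 0.82 (adjusted p = 0.0261). The pantetheinase Vnn1, a known target of the fatty acid receptor PPAR alpha, stood at log2 12.25 and 12.47 on uncoated plates, against 11.40 and 10.80 on collagen, and rose 2.39-fold. Ppargc1a, the coactivator of mitochondrial and gluconeogenic genes, stood at log2 7.59 and 7.59 on uncoated plates, against 5.70 and 5.61 on collagen, and rose 3.82-fold. It was 1 of 3 rises among 19 genes of gluconeogenesis and glycogen, where 1 gene fell, a call lost without any one of the 4 arrays. Those rises numbered 1 without uncoated replicate 2 and without collagen replicate 2.

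Among 24 alcohol and aldehyde dehydrogenases and related reductases, 8 rose (33.3%) and 1 fell, with a median of 0.084. Aldh3a1, which oxidises aromatic and lipid aldehydes, stood at log2 8.66 and 8.07 on uncoated plates, against 6.72 and 6.29 on collagen, and rose 3.64-fold, and Aldh6a1, of valine breakdown, stood at log2 9.89 and 9.91 on uncoated plates, against 8.77 and 8.79 on collagen, and rose 2.18-fold. Adh1, the liver alcohol dehydrogenase, stood at log2 4.48 and 4.19 on uncoated plates, against 4.24 and 4.38 on collagen, under the quartile on both plates, and did not change past the threshold (log2 0.025, SE 0.20, adjusted p = 0.951). The 8 rises numbered 5 without uncoated replicate 1 and without uncoated replicate 2, and 4 without collagen replicate 1, and the fall was lost without uncoated replicate 2. Of 20 transporters of bile acids and organic ions, 5 rose and 1 fell. The organic cation carrier Slc22a18 rose by 1.29 (SE 0.20) (0.42 and not called by its other probe set) and the export pump Abcc1 fell by 0.70, while the 5 rises numbered 2 without uncoated replicate 2 and 3 without any other array, and the falls 2 without collagen replicate 2. A dimmer probe set of Abcc1, above the quartile, was not called (-0.19, adjusted p = 0.41). Of 23 genes of the urea cycle and amino acid breakdown, 1 rose and 4 fell, with a median of -0.146, and 11 were near background on both plates. Hal, which starts histidine breakdown, was the rise, at log2 5.73 and 5.69 on uncoated plates, against 4.23 and 4.12 on collagen, and Bcat1 led the falls, which numbered 1 without uncoated replicate 2.

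Genes of other epithelia were read next. Of 27 intestinal and mucosal genes, 11 rose (40.7%) and none fell, with a median of 0.381, and 8 to 14 rose when any 1 array was left out. Villin (Vil1), the actin bundler of the brush border, stood at log2 10.04 and 10.41 on uncoated plates, against 7.92 and 7.79 on collagen. It rose 5.14-fold (log2 2.36, SE 0.15), with both replicates of each plate close together. The lectin-like secreted protein Reg4 stood at log2 5.89 and 7.24 on uncoated plates, against 4.85 and 4.86 on collagen, and rose 3.27-fold. Galectin 4 (Lgals4), a lectin of the gut epithelium, stood at log2 12.79 and 13.32 on uncoated plates, against 11.65 and 10.35 on collagen. Collagen replicate 2 of Lgals4 lay far below collagen replicate 1, and its call was lost without single arrays (adjusted p = 0.115 without uncoated replicate 2 and 0.158 without collagen replicate 2). Of 24 biliary and keratin genes 8 rose (33.3%) and 1 fell, with a median of 0.237. Sox9, the transcription factor of bile ducts, stood at log2 9.05 and 9.77 on uncoated plates, against 7.36 and 7.51 on collagen, and the epithelial adhesion molecule Epcam at 9.37 and 10.04 on uncoated plates, against 8.64 and 8.62 on collagen. They rose 3.94-fold and 2.11-fold, the anion exchanger Slc4a2 of bicarbonate secretion rose 2.23-fold and the water channel Aqp1 rose by log2 1.47 (SE 0.20) from under the quartile. Krt19 stood at log2 13.75 and 13.68 on uncoated plates, against 13.94 and 13.95 on collagen, and the difference of -0.23 (SE 0.081) missed the threshold (adjusted p = 0.0505). Krt7 stood at log2 12.71 and 12.64 on uncoated plates, against 13.33 and 13.12 on collagen, and fell by 0.55, a call lost without any one array (adjusted p = 0.072 without uncoated replicate 1, 0.138 without uncoated replicate 2, 0.186 without collagen replicate 1 and 0.053 without collagen replicate 2).

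Among 16 genes of hepatoblasts and the fetal liver, 2 rose and 2 fell, with a median of -0.054. Afp stood at log2 11.03 and 10.35 on uncoated plates, against 11.47 and 11.57 on collagen. Uncoated replicate 2 was the lowest array, and the fall of 0.83 (SE 0.21) was lost on leaving out single arrays (adjusted p = 0.148 without uncoated replicate 2 and 0.0719 without collagen replicate 2). The RNA-binding protein Igf2bp1 stood at log2 8.98 and 8.89 on uncoated plates, against 9.69 and 9.63 on collagen, and fell 1.66-fold, and Igdcc4, a surface protein of fetal liver progenitors, stood at log2 7.41 and 6.87 on uncoated plates, against 5.42 and 5.37 on collagen, and rose 3.36-fold. Of 27 genes of tight and adherens junctions 9 rose and 4 fell, and the rises numbered 5 without uncoated replicate 2, without collagen replicate 1 and without collagen replicate 2. E-cadherin (Cdh1), the adhesion protein of epithelia, stood at log2 12.99 and 13.12 on uncoated plates, against 12.31 and 12.33 on collagen, and rose by 0.73 (SE 0.12). Tricellulin (Marveld2) rose by 1.33 (SE 0.15) and desmoglein 2 (Dsg2) by 0.87 (SE 0.17), beside Ocln. The dimmest probe set of Dsg2 was not called (0.29, adjusted p = 0.311), while its others were. Gja1 led the falls, and Perp, a protein of desmosomes, fell by 0.62, while the 4 falls numbered 2 without uncoated replicate 2.

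Genes of cell division fell together. All 40 measured mitosis genes fell (100%), by a median of log2 -0.999, against 12.3% falls over all genes, and 32 to 40 fell when any 1 array was left out. The kinase Aurka, of centrosomes and spindle poles, stood at log2 8.96 and 8.38 on uncoated plates, against 10.07 and 10.05 on collagen. Aurkb, the kinase of the chromosomal passenger complex, stood at log2 9.41 and 8.84 on uncoated plates, against 10.60 and 10.43 on collagen, and the spindle checkpoint kinase Bub1 at 10.52 and 10.07 on uncoated plates, against 11.65 and 11.69 on collagen. They fell by 1.39 (SE 0.17), 1.39 (SE 0.16) and 1.38 (SE 0.17), and in each the lowest array was uncoated replicate 2. A dimmer probe set of Bub1 was not called (-0.41, adjusted p = 0.119). The condensin subunit Ncapg fell by 1.31 and the kinetochore protein Nuf2 by 1.28. Mitosis genes are known to share promoter elements, the CCAAT box bound by NF-Y and the CHR element TTTGAA. The promoters of Aurka and Bub1 are shown, the largest falls of the list with a promoter at hand. Aurka held both elements and Bub1 the CCAAT box alone. They run from 250 bases before to 50 after the annotated start, from RefSeq on build GRCm38.p6, and the capitals mark CCAAT, its reverse complement ATTGG and TTTGAA or its reverse complement.
Aurka (chr2:172370521-172370820, minus strand): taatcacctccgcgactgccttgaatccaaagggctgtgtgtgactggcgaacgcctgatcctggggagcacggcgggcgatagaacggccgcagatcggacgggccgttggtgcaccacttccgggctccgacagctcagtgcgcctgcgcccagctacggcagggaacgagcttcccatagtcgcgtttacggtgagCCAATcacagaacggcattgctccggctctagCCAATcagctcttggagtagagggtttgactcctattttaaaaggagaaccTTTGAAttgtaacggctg
Bub1 (chr2:127831810-127832109, minus strand): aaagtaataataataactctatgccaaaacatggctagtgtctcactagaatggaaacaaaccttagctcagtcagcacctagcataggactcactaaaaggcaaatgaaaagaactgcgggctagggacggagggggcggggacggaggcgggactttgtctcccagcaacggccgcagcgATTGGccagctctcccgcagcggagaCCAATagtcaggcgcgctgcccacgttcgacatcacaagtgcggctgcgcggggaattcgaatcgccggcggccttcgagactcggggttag
Of 32 list members with a promoter in the table, 25 held CCAAT on either strand (78.1%) and 24 held TTTGAA on either strand (75%), where 37.9% and 18.1% of 27025 promoters of the same length did. CCAAT and TTTGAA can share 1 base where they adjoin, and a match is a description of the letters, not of a bound site.

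Of 39 DNA replication genes 32 fell (82.1%) and none rose, with a median of -0.749 and every member below 0. Gins1, of the replicative helicase, stood at log2 9.43 and 9.07 on uncoated plates, against 10.56 and 10.45 on collagen, Orc1, of the origin recognition complex, at 6.87 and 6.71 on uncoated plates, against 8.02 and 8.12 on collagen, and the exonuclease Exo1 at 7.88 and 7.11 on uncoated plates, against 8.84 and 8.75 on collagen. They fell by 1.25, 1.28 and 1.30. The count of 32 was 13 without uncoated replicate 2 and 14 without collagen replicate 1. Of 25 regulators of the first gap phase of the cycle, 6 rose and 5 fell. Mxd4, which opposes MYC at its target genes, stood at log2 9.68 and 9.69 on uncoated plates, against 8.30 and 8.41 on collagen, and rose 2.52-fold (0.21 and not called by its dimmest probe set), and Rbl2, a retinoblastoma relative of resting cells, rose by 0.71 (SE 0.10). Its relative Rbl1 fell by 0.79, and cyclin D1 (Ccnd1) stood at log2 13.03 and 12.96 on uncoated plates, against 13.56 and 13.49 on collagen, and fell by 0.54. The 6 rises numbered 3 without uncoated replicate 2, without collagen replicate 1 and without collagen replicate 2, and the 5 falls 3 without uncoated replicate 2.

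Cholesterol synthesis genes lay lower on uncoated plates, with calls that rested on single arrays. All 19 had a change below 0, with a median of -0.923, and 6 of them fell (31.6%). That count was 1 without uncoated replicate 1, 1 without uncoated replicate 2, 5 without collagen replicate 1 and 0 without collagen replicate 2. Idi1, the isomerase that makes the second building block of isoprenoids, stood at log2 10.81 and 11.16 on uncoated plates, against 11.88 and 12.58 on collagen. Lss, which closes the sterol rings, stood at log2 9.15 and 9.38 on uncoated plates, against 10.17 and 10.84 on collagen. In both, collagen replicate 2 lay above collagen replicate 1, as in the list as a whole, where the median difference between these replicates was 0.555, and the calls of Idi1 (adjusted p = 0.14 without uncoated replicate 1, 0.0697 without uncoated replicate 2 and 0.208 without collagen replicate 2) and Lss (adjusted p = 0.0901 without uncoated replicate 1, 0.0594 without uncoated replicate 2 and 0.157 without collagen replicate 2) were lost. With probe sets averaged they were lost too (adjusted p = 0.0505 for Idi1 and 0.072 for Lss). Promoters of these genes are known for sterol regulatory elements with CCAAT boxes nearby, and those of Idi1 and Lss are shown on the same build with CCAAT or its reverse complement ATTGG in capitals.
Idi1 (chr13:8885356-8885655, plus strand): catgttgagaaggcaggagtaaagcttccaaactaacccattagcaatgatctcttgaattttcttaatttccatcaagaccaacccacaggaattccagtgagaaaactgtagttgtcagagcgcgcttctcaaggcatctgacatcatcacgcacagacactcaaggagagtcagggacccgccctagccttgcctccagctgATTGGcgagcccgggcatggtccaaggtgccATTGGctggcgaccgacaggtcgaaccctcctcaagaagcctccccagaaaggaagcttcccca
Lss (chr10:76531355-76531654, plus strand): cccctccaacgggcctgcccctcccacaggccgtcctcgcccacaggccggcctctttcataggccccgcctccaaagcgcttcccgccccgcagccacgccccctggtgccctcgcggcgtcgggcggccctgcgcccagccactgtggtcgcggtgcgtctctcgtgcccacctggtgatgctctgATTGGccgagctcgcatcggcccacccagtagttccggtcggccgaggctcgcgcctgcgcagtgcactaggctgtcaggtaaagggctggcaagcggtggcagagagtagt
Of 15 list members with a promoter 14 held CCAAT on either strand (93.3%, against 37.9% of all promoters). The sterol element TCACNCCAC, which can share 1 base with an adjoining CCAAT, was held on either strand by 1 of 15 (6.67%, against 1.22% of all). Neither promoter shown, of Idi1 or of Lss, held it. Of 19 genes of fatty acid synthesis 2 rose and 5 fell, with a median of -0.271. Elovl6, which lengthens palmitate, stood at log2 9.36 and 9.75 on uncoated plates, against 10.59 and 10.89 on collagen, and fell 2.28-fold, and Dgat2, of triglyceride synthesis, stood at log2 8.31 and 8.15 on uncoated plates, against 7.36 and 7.28 on collagen, and rose 1.88-fold. The 5 falls numbered 2 without uncoated replicate 1 and without collagen replicate 2, and 3 without collagen replicate 1, and the 2 rises numbered 1 without any one of the 4 arrays.

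Of 31 genes of the ATF4 response and serine synthesis, by which cells meet a shortage of amino acids, 9 fell (29%) and none rose, with a median of -0.565. Mthfd2 stood at log2 9.21 and 8.71 on uncoated plates, against 10.60 and 11.26 on collagen, and fell 3.91-fold. Asparagine synthetase (Asns) stood at log2 10.91 and 10.56 on uncoated plates, against 12.19 and 12.60 on collagen, and fell 3.15-fold. Slc7a5, the importer of large amino acids, stood at log2 10.25 and 9.81 on uncoated plates, against 11.35 and 11.46 on collagen, and fell 2.6-fold. In all 3 the plates did not overlap, and for Mthfd2 and Asns collagen replicate 2 was the highest array. The count of 9 was 4 without uncoated replicate 2 and without collagen replicate 2. ATF4 is known to bind the amino acid response element TGATGNAA. The promoter of Mthfd2, the largest fall of the list, held no match on either strand. That of Asns held the match in capitals.
Asns (chr6:7693160-7693459, minus strand): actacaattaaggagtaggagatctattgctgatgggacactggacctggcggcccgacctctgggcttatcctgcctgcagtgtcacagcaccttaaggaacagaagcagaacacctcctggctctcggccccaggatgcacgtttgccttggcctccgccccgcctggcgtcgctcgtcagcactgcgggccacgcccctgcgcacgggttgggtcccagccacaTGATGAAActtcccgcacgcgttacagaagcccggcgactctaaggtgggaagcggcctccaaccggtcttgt
On either strand 8 of 26 list members with a promoter held that element (30.8%, against 4.06% of all promoters).

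Of 27 genes of glycolysis and the hypoxia response, 11 fell (40.7%) and 2 rose, with a median of -0.342. Hexokinase 2 (Hk2), the entry enzyme of glycolysis in growing cells, stood at log2 10.15 and 10.09 on uncoated plates, against 11.02 and 11.20 on collagen. Its fall of 0.99 (SE 0.10) was far wider than the gap between replicates. The lactate carrier Slc16a1 fell by 0.60, while Pfkfb3, which makes the activator of phosphofructokinase, stood at log2 7.69 and 8.03 on uncoated plates, against 6.80 and 6.91 on collagen, and rose 2.01-fold (0.19 and not called by its other probe set). The stress gene Ndrg1 stood at log2 12.16 and 12.04 on uncoated plates, against 10.37 and 10.96 on collagen, and rose 2.71-fold, a call lost on leaving out 1 array (adjusted p = 0.0958 without collagen replicate 1). The 11 falls numbered 7 without uncoated replicate 2 and 6 without collagen replicate 2, and the 2 rises 1 without collagen replicate 1. Of 34 ribosome biogenesis genes 28 fell (82.4%) and none rose, with a median of -0.485 and every member below 0. Bysl, of small subunit assembly, stood at log2 8.68 and 8.55 on uncoated plates, against 9.82 and 9.74 on collagen, and Heatr1, of rRNA transcription and processing, at 9.29 and 9.35 on uncoated plates, against 10.32 and 10.25 on collagen. They fell by 1.17 and 0.96, and Rrp12 fell by 1.12. A dimmer probe set of Heatr1 was not called (-0.39, adjusted p = 0.212). The count of 28 was 15 without uncoated replicate 2, 14 without collagen replicate 1 and 18 without collagen replicate 2.

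Lysosomal genes rose together. Of 38 measured, 26 rose (68.4%) and none fell, with a median of 0.518, and 18 or 19 rose when any 1 array was left out. Cathepsin A (Ctsa), a protease that also protects other lysosomal enzymes, stood at log2 10.83 and 11.05 on uncoated plates, against 9.32 and 9.22 on collagen. It rose 3.19-fold (log2 1.67, SE 0.14). The peptidase Tpp1 stood at log2 11.45 and 11.71 on uncoated plates, against 10.53 and 10.36 on collagen, and rose 2.19-fold, the thioesterase Ppt1 rose by 0.97 (SE 0.12) and the lipase Lipa by 0.87 (SE 0.15). In all 4 the replicates of a plate differed by less than the plates. Of 22 genes of the primary cilium 7 rose (31.8%) and 1 fell, with a median of 0.253, among them the transport proteins Ift74 at 0.58 (SE 0.10) and Ift46 at 0.50 (SE 0.093). That count of 7 was 4 without uncoated replicate 1 and 3 without collagen replicate 1, and the fall was lost without any one array.

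The gene of the introduced enzyme and enzymes that use 2-oxoglutarate were read next. Idh1 stood at log2 11.98 and 12.16 on uncoated plates, against 11.81 and 11.97 on collagen, and Idh2, the mitochondrial form, at 11.10 and 11.10 on uncoated plates, against 10.89 and 10.92 on collagen. Neither changed past the threshold (adjusted p = 0.511 and 0.0789). Whether the Idh1 probe set reads the introduced sequence is not known, so its signal does not check the label. In the citric acid cycle and glutamate metabolism, with 26 genes measured, 5 rose and 6 fell, with a median of -0.03. Idh3a, a subunit of the NAD-linked mitochondrial isocitrate dehydrogenase, stood at log2 10.81 and 10.45 on uncoated plates, against 11.65 and 11.61 on collagen, and fell 1.99-fold. Dimmer probe sets of Idh3a gave smaller changes of -0.49 (adjusted p = 0.0405) and -0.42 (adjusted p = 0.0531, not called). Citrate synthase (Cs) fell by 0.55 and the oxoglutarate dehydrogenase Ogdh by 0.49, while glutamate dehydrogenase (Glud1) stood at log2 12.75 and 12.91 on uncoated plates, against 12.28 and 12.24 on collagen, and rose by 0.57 (SE 0.089), and glutamine synthetase (Glul) rose by 0.59 (SE 0.13). The 5 rises numbered 2 or 3 without any one array, and the 6 falls 3 without uncoated replicate 2 and without collagen replicate 1. Of 26 dioxygenases that use 2-oxoglutarate 8 rose and 5 fell. The histone H3 lysine 4 demethylases Kdm5a, at log2 10.69 and 10.80 on uncoated plates, against 9.69 and 9.76 on collagen, and Kdm5b, at 10.71 and 10.86 on uncoated plates, against 9.79 and 10.15 on collagen, rose by 1.02 (SE 0.11) and 0.81 (SE 0.14). The collagen lysyl hydroxylase Plod2 stood at log2 8.82 and 8.76 on uncoated plates, against 9.73 and 9.93 on collagen, and fell 2.06-fold, and the oxygen sensor Egln1 fell by 0.53. Those 8 rises numbered 3 without uncoated replicate 2, 4 without collagen replicate 1 and 5 without each other array, and the 5 falls 3 without uncoated replicate 1 and without collagen replicate 2. Of 42 respiratory chain genes 1 rose and 5 fell, with a median of 0.032. Those falls numbered 0 without uncoated replicate 2 or collagen replicate 1, 2 without collagen replicate 2 and 3 without uncoated replicate 1, and the rise stayed only without collagen replicate 1.

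The substrate itself differed between the plates, and genes of cell-matrix contact went both ways. Of 35 integrins, laminins and collagens, 5 rose and 8 fell, with a median of -0.052. Integrin alpha 2 (Itga2), a subunit of a collagen receptor, stood at log2 6.54 and 6.52 on uncoated plates, against 7.63 and 7.66 on collagen. The replicates of each plate were nearly equal, and it fell 2.17-fold (log2 -1.12, SE 0.11). The collagen chain Col5a2 fell by 1.59 (SE 0.31), and nidogen 1 (Nid1), a linker of basement membranes, fell by 1.32 (-0.36 and not called by its other probe set). Laminin beta 2 (Lamb2) stood at log2 9.07 and 9.64 on uncoated plates, against 7.98 and 7.97 on collagen, and rose 2.6-fold, and the vitronectin receptor subunit Itgb5 stood at log2 9.61 and 10.05 on uncoated plates, against 8.75 and 8.76 on collagen, and rose 2.1-fold. The 5 rises numbered 3 without uncoated replicate 2 and without collagen replicate 1, and the 8 falls 5 and 4 in these settings. Of 27 extracellular proteases and inhibitors 7 rose and 4 fell. The granzyme inhibitor Serpinb9 stood at log2 9.44 and 10.42 on uncoated plates, against 7.87 and 8.13 on collagen, and rose 3.82-fold, and the metalloprotease Adam8 stood at log2 5.62 and 6.32 on uncoated plates, against 7.36 and 7.53 on collagen, and fell 2.78-fold, beside Htra1 and Serpinb2. Those 7 rises numbered 4 without uncoated replicate 2 and without collagen replicate 1, and the 4 falls numbered 4 throughout.

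Signalling genes went both ways. Against 13.6% rises and 12.3% falls over all genes, the ERK list had 9.68% rises and 22.6% falls. The YAP and TEAD list had 5% and 25%, and the Notch and Wnt list 17.6% and 5.88%. TGF beta and BMP genes had 21.4% and 3.57%, and p53 targets 10.5% and 21.1%. Of 31 genes of ERK feedback and early response 7 fell and 3 rose, with a median of -0.253. Beside Fos, the receptor Epha2 stood at log2 9.98 and 9.87 on uncoated plates, against 10.78 and 10.66 on collagen, and fell by 0.79, while the ERK pathway inhibitor Spred1 stood at log2 10.98 and 11.03 on uncoated plates, against 10.38 and 10.37 on collagen, and rose by 0.63 (SE 0.093). The 7 falls numbered 3 without uncoated replicate 2 and without collagen replicate 1. Of 20 YAP and TEAD targets and factors 5 fell and 1 rose, with a median of -0.177. Birc5, which is also a mitotic protein, stood at log2 10.91 and 10.34 on uncoated plates, against 11.76 and 11.66 on collagen, and fell 2.12-fold, and Tead1 stood at log2 5.48 and 5.43 on uncoated plates, against 6.52 and 6.52 on collagen, and fell 2.09-fold. Those 5 falls numbered 3 without uncoated replicate 2, collagen replicate 1 or collagen replicate 2, and the rise, Axl, was lost in the same 3 settings and with probe sets averaged (adjusted p = 0.113). Of 34 Notch and Wnt genes 6 rose and 2 fell, among them Wnt4, at log2 8.89 and 9.03 on uncoated plates, against 7.96 and 7.95 on collagen with a rise of 1.01 (SE 0.14), Notch1, at log2 9.86 and 10.46 on uncoated plates, against 9.16 and 9.43 on collagen with a rise of 0.87 (SE 0.18), and the Wnt receptor Fzd5, which fell by 0.70. Of 28 genes of TGF beta and BMP signalling 6 rose and 1 fell. Bmp4 stood at log2 8.54 and 8.42 on uncoated plates, against 7.04 and 7.07 on collagen, and rose 2.68-fold, and the receptor Tgfbr1 rose by 0.83 (SE 0.17). Dimmer probe sets of Tgfbr1, above the quartile, were not called (0.85, adjusted p = 0.0814, and 0.46, adjusted p = 0.198). The 6 rises numbered 2 without uncoated replicate 2 and 3 without collagen replicate 1, and the fall was lost in both settings. Of 19 p53 targets 2 rose and 4 fell, among them the repair protein Xpc, which rose by 0.97 (SE 0.12), and the exonuclease Aen, which fell by 0.83 (-0.18 and not called by its dimmest probe set). The 2 rises numbered 1 without either uncoated array and without collagen replicate 1.

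Markers of other cell types were mostly not called. Of 21 mesenchymal markers 1 rose and 1 fell, each lost without uncoated replicate 2 and without collagen replicate 1, the fall also without collagen replicate 2. The log2 of their summed intensity ranged from 14.605 to 14.621 on uncoated plates, against 14.72 to 14.721 on collagen. The fibrillar collagen Col3a1 was under the quartile in all 4 arrays, while Vim, as given above, lay far above it in all 4. Of 15 blood cell markers 1 rose, with 1 fall without collagen replicate 2, and the log2 of their sum ranged from 9.996 to 10.048 on uncoated plates, against 10.032 to 10.13 on collagen. The rise was the leukocyte marker Ptprc, at log2 5.76 and 4.93 on uncoated plates, against 4.07 and 4.25 on collagen. Its call was lost without single arrays (adjusted p = 0.0803 without uncoated replicate 1 and 0.0602 without collagen replicate 1). Cd14 of that list stood at log2 9.23 and 9.44 on uncoated plates, against 9.25 and 9.53 on collagen, and the integrin Itgam was under the quartile in all 4 arrays. Of 14 endothelial markers none was called, and the log2 of their sum ranged from 9.114 to 9.166 on uncoated plates, against 9.119 to 9.209 on collagen. Pecam1, Tek and Lyve1 were under the quartile in all 4 arrays. At or under the quartile on both plates were 8 of the 14 endothelial, 6 of the 15 blood and 7 of the 21 mesenchymal markers. The other markers lay above it on at least 1 plate. The part of such cells in other results was not tested.

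The 2 uncoated cultures did not stand at the same distance from collagen. Of the 287 genes that rose at least 2-fold, 234 were higher in uncoated replicate 2 than in replicate 1, and the median change was log2 1.427 for replicate 2 and 1.206 for replicate 1. Of the 205 genes that fell at least 2-fold, 178 were lower in replicate 2 (median -1.358, against -1.038). Over all genes 6232 were higher and 6144 lower in replicate 2. All 40 mitosis genes and 38 of 39 DNA replication genes were lower in replicate 2, with mitosis medians of -1.219 and -0.774. Cholesterol synthesis ran the other way, with 17 of 19 genes higher in replicate 2. Since the day of harvest was not given beyond the limit of 5 days, whether it differed between the cultures was not tested.

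**Figure D4:**
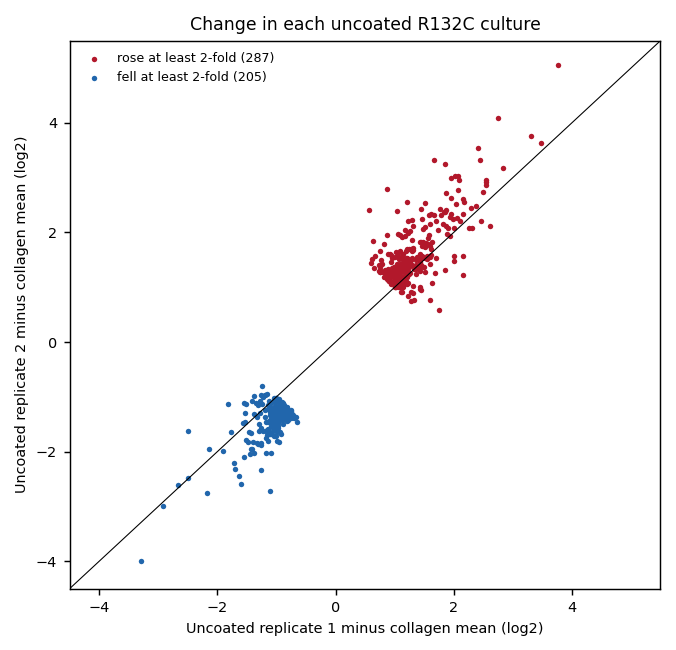
Change of the 287 rises (red) and 205 falls (blue) of at least 2-fold in each uncoated culture, as the array minus the mean of both collagen arrays on the log2 scale, with replicate 1 on the horizontal and replicate 2 on the vertical axis. On the diagonal line both cultures moved alike. Most red points lie above it (234) and most blue points below it (178).

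The response of R132C cells was last set against that of vector cells, to ask for which genes the mutant cells answered the plate differently. In vector cells 3628 genes (29.3%) were called, against 3215 in R132C cells. Of those 3215 genes 3178 had a change of the same sign in vector cells and 37 of the opposite sign. Of the 3178, 1598 had a smaller size in R132C cells and the rest did not, a near even split. These genes were chosen by their call in R132C cells, which can favour larger sizes there. No array enters both plate effects, while their spread was estimated together. Deviations of same-numbered arrays correlated at 0.26 between the uncoated groups and at 0.291 between these collagen groups, so the plate effects may not be independent. The difference between the responses passed adjusted p 0.05 for 31 genes (0.25%), and in all 31 the change was lower in R132C cells. By limma none was higher at that threshold in this fit, while 694 genes had an unadjusted p under 0.05. Under other settings some were higher: 7 of 55 with array weights, 5 of 54 with replicate number as a block, 2 of 39 when every probe set was tested and 19 of 79 without vector uncoated replicate 2. Of the 31, 20 rose in R132C cells and 11 were not called there.

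Spink4, a secreted peptide of goblet cells, stood at log2 5.91 and 6.33 on uncoated plates, against 4.88 and 4.70 on collagen in R132C cells. In vector cells it stood at 8.35 and 8.48 on uncoated plates, against 4.63 and 4.63 on collagen. The uncoated R132C cultures lay between the vector plates, and the changes were 1.33 (SE 0.16) in R132C cells and 3.79 (SE 0.16) in vector cells, with a difference of -2.45 (adjusted p = 0.000401). The collagen arrays of both kinds of cell were at or close to the quartile, so these sizes are not exact. Ttr stood in vector cells at log2 9.31 and 8.96 on uncoated plates, against 5.95 and 6.21 on collagen, and its changes were 1.15 (SE 0.15) in R132C cells and 3.06 (SE 0.15) in vector cells (difference -1.91), all from its brightest probe set. Adamts1, a matrix metalloprotease, stood at log2 7.22 and 7.36 on uncoated plates, against 5.84 and 6.30 on collagen in R132C cells, and in vector cells at 9.58 and 9.12 on uncoated plates, against 5.88 and 6.42 on collagen. Its difference was -1.98 (SE 0.29), and again the uncoated R132C arrays were above the collagen arrays of both kinds of cell and below the uncoated vector arrays. The guanylin precursor Guca2a rose by 1.01 (SE 0.21) in R132C cells and by 3.29 (SE 0.21) in vector cells. For the kinase Camk1d the changes were 0.85 (SE 0.21) and 2.81 (SE 0.21), and for Mt2 1.58 (SE 0.21) and 3.29 (SE 0.21). Mptx1, a pentraxin of the gut, stood at log2 3.75 and 4.33 on uncoated plates, against 3.47 and 3.40 on collagen in R132C cells, under the quartile throughout, and in vector cells at 9.05 and 9.17 on uncoated plates, against 3.26 and 3.34 on collagen. Folr1, a folate receptor, stood at log2 5.69 and 6.33 on uncoated plates, against 4.75 and 4.74 on collagen in R132C cells and in vector cells at 10.11 and 9.78 on uncoated plates, against 4.63 and 4.83 on collagen. Both were near background on collagen, so the sizes of their differences, -5.21 (SE 0.22) and -3.96 (SE 0.29), are not exact. The R132C calls of Camk1d (adjusted p = 0.072 without uncoated replicate 1 and 0.0732 without collagen replicate 2) and Mptx1 (adjusted p = 0.142 without uncoated replicate 2 and 0.0675 without collagen replicate 2) were lost on leaving out single arrays. Of these genes Adamts1, Camk1d and Mt2 also lost the call of the difference on leaving out single arrays, with adjusted p of 0.057 without R132C uncoated replicate 1, 0.0613 without R132C collagen replicate 2 and 0.0542 without vector uncoated replicate 1, 0.0586 without R132C uncoated replicate 2, 0.0929 without R132C collagen replicate 1, 0.0565 without R132C collagen replicate 2, 0.0586 without vector uncoated replicate 1 and 0.0625 without vector collagen replicate 2 and 0.101 without R132C uncoated replicate 1, 0.0577 without R132C collagen replicate 1, 0.16 without R132C collagen replicate 2, 0.0569 without vector uncoated replicate 1, 0.0736 without vector uncoated replicate 2 and 0.109 without vector collagen replicate 2.

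With all arrays no gene had a difference in the other direction past the threshold in the fit without block or weights, and the largest such values are given as values. The secreted mucin Muc5b stood at log2 7.33 and 8.14 on uncoated plates, against 5.93 and 6.12 on collagen in R132C cells, and in vector cells at 6.57 and 6.80 on uncoated plates, against 6.24 and 6.15 on collagen. It rose by 1.71 (SE 0.21) in R132C cells, while in vector cells the change of 0.49 (SE 0.21) did not pass. The difference of 1.22 (SE 0.30) did not pass either (adjusted p = 0.188). The matrix protein Edil3 had changes of 2.15 (SE 0.28) in R132C cells and 0.91 (SE 0.28) in vector cells, with an adjusted p of 0.458 for the difference, and other, dimmer probe sets of Edil3 gave 0.48 and 0.06 in R132C cells. Acox2 had changes of 2.53 (SE 0.28) in R132C cells and 1.47 (SE 0.28) in vector cells, with an adjusted p of 0.661. For the mitosis list the medians were -0.999 in R132C cells and -1.422 in vector cells, for cholesterol synthesis -0.923 and -1.404, and for the intestinal list 0.381 and 1.152. In these lists 0 of 40, 0 of 19 and 5 of 27 genes had a difference past the threshold. In simulated data the test of the difference recovered 10.4% of changes of log2 0.5. It recovered 64.2% of changes of log2 1.0 and 98.5% of log2 2.0, with 6 false calls. The simulated arrays shared no deviations between groups, as the real ones in part did, so these shares may not carry over. Genes not past the threshold may still differ. The count of 31 was 22 without R132C uncoated replicate 1, 19 and 20 without R132C collagen replicate 1 and 2, 20 without vector collagen replicate 2 and 79 without vector uncoated replicate 2.

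**Figure D5:**
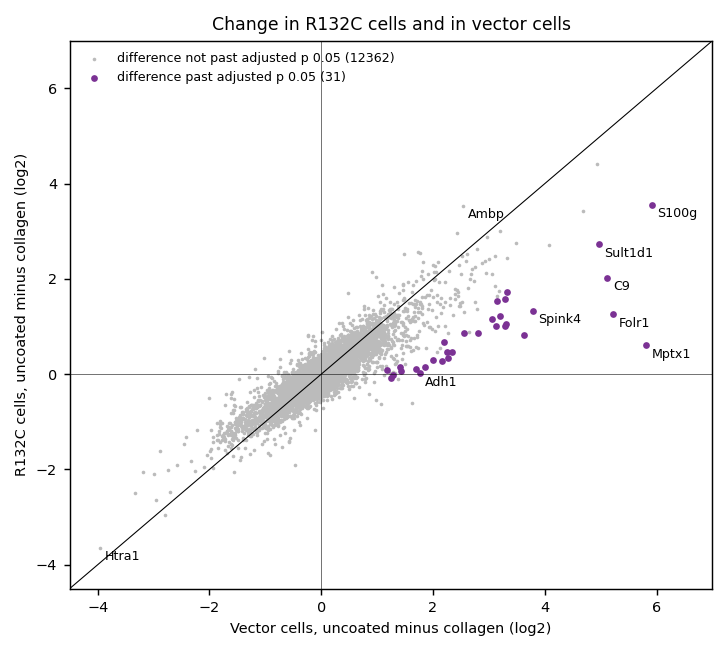
Change of each of 12393 genes in vector cells (horizontal axis) and in R132C cells (vertical axis), uncoated minus collagen on the log2 scale. Purple points are the 31 genes with a difference past adjusted p 0.05, and the diagonal line marks equal change. All 31 lie below the diagonal, with Mptx1 at 0.60 in R132C cells and 5.81 in vector cells.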

How the data were processed

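RNA of hepatoblast cultures had been measured on Affymetrix mouse gene expression arrays, and the authors deposited probe set intensity values that had been summarised by RMA, a robust averaging over arrays, per the submitters' processing notes; they name no version or settings. The deposited intensity values ran from 5.84 to 26770, a linear scale, so log2 of the deposited values was taken. Of 22690 probe sets 64 were controls, 20380 had 1 symbol, 691 several and 1555 none. Each of 12393 genes was read by its single-symbol probe set of highest mean over the 14 arrays, and 4956 genes had more than 1. Gene IDs of 12369 genes matched RefSeq. Means of 7 groups were fitted with limma 3.58.1 in R 4.3.3 (eBayes with intensity trend, 7 residual and 5.67 prior degrees of freedom), and adjusted p is by Benjamini-Hochberg over all genes, called under 0.05. Beside the R132C and vector groups these were wild-type IDH1, wild-type IDH2 and IDH2 R172K cells on collagen, and all shared 1 estimate of spread. The replicate SD over genes was log2 0.222 for R172K, against 0.145 for R132C uncoated and 0.130 for R132C collagen arrays. With the 4 R132C arrays alone 3857 genes were called. The fit was tested on simulated data.

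The series text calls the replicates cultures, so p-values measure the spread between cultures. Groups were taken from the sample titles. The comparison, the gene lists and the rule for naming genes were chosen with earlier results of these data known. The rule takes a fixed set of 10 genes, up to 15 rises and 15 falls above background and 8 of each near it, up to 5 called members per list and direction, the brightest genes with at least 2-fold change, the largest differences from vector cells and the widest replicate gaps. The markers used to check the cell label were fixed apart. The replicate numbers were not taken to pair the cultures, since deviations from the group means of same-numbered arrays correlated at 0.004 between R132C uncoated and R132C collagen arrays and at -0.022 between the vector groups. They correlated at 0.26 between both uncoated groups, at 0.291 between vector and R132C collagen arrays and at 0.111 to 0.487 between collagen groups. The fit with the number as a block is among the alternatives. The alternatives changed the features (every probe set, probe set means, or only genes over the 30th percentile), the scaling (cyclic loess or median centring), the fit (without trend, with the compared groups alone, with array weights or with a replicate block) and the arrays, each left out in turn. A group left with 1 array was then taken to spread as the rest do. Another background correction cannot be run from summarised values. Detection calls were not used here.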

Additional observations from a re-analysis of the deposited data

Results flagged for a closer look

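The responses of R132C cells and vector cells differed past adjusted p 0.05 by the test of the difference itself (limma) for the genes below, each a value on the log2 scale, R132C minus vector. No explanation was tested. The difference was -5.21 for Mptx1, -3.96 for Folr1, -2.45 for Spink4, -2.28 for Guca2a and -2.36 for S100g. It was -3.10 for C9, -1.91 for Ttr and -1.71 for Mt2, and -2.24 for Sult1d1, -1.98 for Adamts1, -1.96 for Camk1d, -1.73 for Adh1 and -1.62 for Hal. The value of Ttr is from its brightest probe set, which rose by 1.15 in R132C cells, while dimmer ones rose by 3.65 and 3.41 there. In R132C cells Mptx1 and Adh1 did not reach the lower quartile on either plate, and Folr1, Spink4, S100g, C9, Sult1d1 and Hal were at or near it on collagen, so that these sizes are not exact. The call of the difference was lost on leaving out single arrays for Adamts1 (0.057 without R132C uncoated replicate 1, 0.0613 without R132C collagen replicate 2 and 0.0542 without vector uncoated replicate 1), Adh1 (0.0803 without R132C uncoated replicate 2, 0.0776 without R132C collagen replicate 1, 0.112 without R132C collagen replicate 2 and 0.0906 without vector collagen replicate 2), Camk1d (0.0586 without R132C uncoated replicate 2, 0.0929 without R132C collagen replicate 1, 0.0565 without R132C collagen replicate 2, 0.0586 without vector uncoated replicate 1 and 0.0625 without vector collagen replicate 2), Mt2 (0.101 without R132C uncoated replicate 1, 0.0577 without R132C collagen replicate 1, 0.16 without R132C collagen replicate 2, 0.0569 without vector uncoated replicate 1, 0.0736 without vector uncoated replicate 2 and 0.109 without vector collagen replicate 2) and S100g (0.0581 without R132C uncoated replicate 1, 0.077 without R132C collagen replicate 1, 0.0565 without R132C collagen replicate 2 and 0.0567 without vector collagen replicate 2), where the values are adjusted p. Groups of 2 arrays are too small for a test of single arrays that stand apart.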

How the results depend on the processing

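Of 188 called results for named genes, 24 lost the call on leaving out 1 array and 9 under another alternative, 4 of them when probe sets were averaged, and 0 with array weights or the replicate block. Those lost under another alternative were Adamts1 (difference), Adh1 (difference), F5 and Mt2 (difference) with only the arrays of the groups compared, Axl, Idi1, Lss and Mt1 with averaged probe sets, Mt2 (difference) with genes above the 30th percentile of level and Serpind1 with every probe set. No called gene named here changed direction. The count of 3215 was 3119 to 4174 under the alternatives that test genes and keep all arrays, 5244 of 22626 when every probe set was tested, and 1660 to 2527 when an array was left out. With arrays centred on their median rises were 44.7% of the calls, against 1689 of 3215 as deposited, and the median of all genes moved by less than 0.1. The difference count of 31 was 11 with genes above the 30th percentile only, 55 with array weights (7 of them higher in R132C cells), 54 with the replicate block (5 higher), 39 with every probe set and 19 to 79 when an array was left out (19 of the 79 higher). With the replicate block 3603 genes changed in R132C cells. A change of sign occurred only in genes without a call, whose log2 changes when 1 array was left out ranged as follows: Adh1 (-0.12 to 0.17, and -0.021 with arrays centred on their median), Ccl20 (-0.45 to 1.14), Cd14 (-0.20 to 0.087) and Cxcl1 (-1.50 to 1.31). The named genes had 123 further probe sets, of which 91 were called in the same direction and 32 not called. Of those 32, 23 had a mean level above the lower quartile. Levels near background make sizes inexact, and 2 arrays per group limit the precision.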

Other observations

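Genes with high signal on both plates that changed at least 2-fold included some outside the lists. Map1lc3b, which marks autophagosomes, stood at log2 12.97 and 12.85 on uncoated plates, against 11.76 and 11.94 on collagen, and rose 2.09-fold, while the dimmest of its other probe sets was not called (-0.05, adjusted p = 0.861). Granulin (Grn), a lysosomal growth factor precursor, stood at log2 12.74 and 12.75 on uncoated plates, against 11.74 and 11.74 on collagen, and rose 2.01-fold, with nearly equal replicates on each plate. Hhex, a transcription factor of early liver and bile duct formation, stood at log2 12.46 and 12.84 on uncoated plates, against 11.51 and 11.58 on collagen, and rose 2.15-fold. The sulfate carrier Slc26a2 rose by log2 1.05 (SE 0.16), the membrane protein Tmem176b by 1.06 (SE 0.11) and the intracellular protease inhibitor Serpinb6b by 1.15 (SE 0.11). These genes kept their calls without any one array, with adjusted p of at most 0.00831 (Slc26a2).

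Some genes differed more between the uncoated cultures than between the plates. The neutrophil chemokine Cxcl1 stood at log2 10.79 and 7.99 on uncoated plates, against 9.15 and 9.82 on collagen, so that the uncoated cultures lay on either side of both collagen cultures. The chemokine Ccl20 stood at log2 11.76 and 10.17 on uncoated plates, against 10.28 and 10.95 on collagen, with uncoated replicate 1 above and uncoated replicate 2 below both collagen arrays. The complement protease C1s1 stood at log2 4.70 and 6.63 on uncoated plates, against 3.83 and 3.84 on collagen, and the clotting factor F5 at 4.37 and 6.22 on uncoated plates, against 3.69 and 3.94 on collagen, with uncoated replicate 2 far above the other 3 arrays in both. Both rose, but the calls of C1s1 (adjusted p = 0.128 without uncoated replicate 2, 0.066 without collagen replicate 1 and 0.0595 without collagen replicate 2) and F5 (adjusted p = 0.165 without uncoated replicate 2, 0.114 without collagen replicate 1 and 0.0589 without collagen replicate 2) were lost.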
